A study of Mus musculus with 12 samples.

Results

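The proteasome genes described here are the mouse genes whose symbol is Psm, a letter from a to g, and a number. Transcript values of the renal cortex were summed for each gene, and 46 of the 13465 genes in the table fitted that name. They comprise 7 genes of the 20S alpha ring, 4 of the structural and 3 of the constitutive catalytic beta subunits, 3 immunoproteasome catalytic subunits (Psmb8, Psmb9 and Psmb10), 6 ATPases and 11 other subunits of the 19S cap, 3 chaperones of 19S assembly, 4 chaperones of 20S assembly, 4 activators and 1 inhibitor. Psma8 and Psmb11 have such a symbol in the annotation but were not analysed here, and Psmc3ip and Psme2b, whose symbols carry letters after the number, were left out. All 46 genes passed the filter on low values (at least 1 FPKM in at least 3 libraries). FPKM, fragments per kilobase of transcript and per fixed number of mapped fragments, allows levels of different genes to be compared per length.

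RNA came from mouse renal cortex in 4 groups of 3 libraries. The groups were CKO IRI (Gpx3 knocked out in the tubular epithelium alone, with ischemia-reperfusion injury), WT IRI (wild type with the same injury), CKO sham (the same knockout, sham) and WT sham (wild type, sham). Both kidneys were made ischemic for 30 min and then reperfused for 48 h, and the study asks how tubular Gpx3 acts on the kidney in that setting. The sources used here do not give the driver of the tubular deletion or the strain, age and sex of the mice. They also do not tie libraries to single mice, so the p-values rest on library-to-library spread, which may be technical.

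The targeted gene, Gpx3 (the secreted glutathione peroxidase), was read first as a check of the labels. It had 3723, 3025 and 2779 FPKM in CKO IRI and 2788, 3568 and 1075 FPKM in WT IRI. It had 2501, 3037 and 3299 FPKM in CKO sham and 5664, 4476 and 5371 FPKM in WT sham. The sham groups did not overlap and the injured groups did, so Gpx3 does not check the genotype labels after injury, and CKO IRI and WT IRI mean the libraries labelled so. Injury labels were checked by Havcr1 (the kidney injury molecule KIM-1), which had 90.6 to 408 FPKM in CKO IRI, 276 to 370 FPKM in WT IRI, 1.67 to 3.05 FPKM in CKO sham and 0.669 to 3.36 FPKM in WT sham. Library sums lay between 391002 and 422328 FPKM, and the read depth behind them is unknown. The typical SD between libraries over the 46 genes (median, log2 scale) was 0.20 in CKO IRI, 0.19 in WT IRI, 0.11 in CKO sham and 0.08 in WT sham.

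The 26S proteasome degrades ubiquitin-tagged proteins. Its 20S core is a stack of alpha and beta rings with the proteolytic sites inside, and its 19S caps bind, unfold and feed the substrate through the ring of ATPases. Interferon-gamma exchanges the catalytic subunits for those of the immunoproteasome and adds the PA28 activator, which favours peptides for class I antigen presentation. Subunit genes are known to be induced together by the transcription factor Nrf1 (Nfe2l1) when proteasome capacity falls short, and kidney tubules have a heavy load of protein to degrade.

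Promoters of 5 members are shown as examples, and each bears a short regulatory word within the stretch shown. No such word was found for Psmb10, Psmg3, Psmd11 or Psmd13, whose changes are also described below. Promoters of only 39 of the 46 members were searched. Each runs from 250 bases before to 50 bases after the start that RefSeq annotates (build GRCm38.p6), in the direction of the gene. Capitals mark TTCNNNGAA, the GAS word bound by STAT factors, in Psmb8 and Psmg1, an interferon-stimulated response word (GAAA, 2 bases of any kind, GAAA), here on the opposite strand, in Psme1, and TGACNNNGC, the antioxidant response word, in Psmb5 and Psmb6.
Psmb8 (immunoproteasome catalytic subunit, chr17:34197945-34198244, plus strand): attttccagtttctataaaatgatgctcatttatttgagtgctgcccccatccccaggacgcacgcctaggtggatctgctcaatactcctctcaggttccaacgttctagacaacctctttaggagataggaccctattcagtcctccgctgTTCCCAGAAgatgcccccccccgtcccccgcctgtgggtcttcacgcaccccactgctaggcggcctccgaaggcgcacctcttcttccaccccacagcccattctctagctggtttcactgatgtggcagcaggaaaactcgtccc
Psme1 (PA28 alpha activator, chr14:55578244-55578543, plus strand): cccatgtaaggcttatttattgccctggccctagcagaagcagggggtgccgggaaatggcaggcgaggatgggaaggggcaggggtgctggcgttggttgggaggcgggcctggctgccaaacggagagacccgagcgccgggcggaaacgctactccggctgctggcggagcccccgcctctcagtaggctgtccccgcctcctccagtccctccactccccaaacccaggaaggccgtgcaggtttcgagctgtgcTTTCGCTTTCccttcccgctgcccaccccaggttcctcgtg
Psmb5 (constitutive catalytic subunit, chr14:54617946-54618245, minus strand): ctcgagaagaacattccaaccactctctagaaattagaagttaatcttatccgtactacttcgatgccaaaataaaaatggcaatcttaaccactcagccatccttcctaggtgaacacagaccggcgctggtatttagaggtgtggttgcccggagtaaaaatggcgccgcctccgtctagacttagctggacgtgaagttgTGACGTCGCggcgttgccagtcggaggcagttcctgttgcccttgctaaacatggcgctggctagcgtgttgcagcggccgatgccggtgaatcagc
Psmb6 (constitutive catalytic subunit, chr11:70525107-70525406, plus strand): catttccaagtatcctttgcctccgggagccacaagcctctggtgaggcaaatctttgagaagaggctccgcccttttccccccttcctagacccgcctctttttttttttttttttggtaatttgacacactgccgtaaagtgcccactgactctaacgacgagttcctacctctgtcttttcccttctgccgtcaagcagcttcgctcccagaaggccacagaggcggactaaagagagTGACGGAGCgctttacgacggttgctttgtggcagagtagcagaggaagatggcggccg
Psmg1 (20S assembly chaperone, chr16:95990911-95991210, minus strand): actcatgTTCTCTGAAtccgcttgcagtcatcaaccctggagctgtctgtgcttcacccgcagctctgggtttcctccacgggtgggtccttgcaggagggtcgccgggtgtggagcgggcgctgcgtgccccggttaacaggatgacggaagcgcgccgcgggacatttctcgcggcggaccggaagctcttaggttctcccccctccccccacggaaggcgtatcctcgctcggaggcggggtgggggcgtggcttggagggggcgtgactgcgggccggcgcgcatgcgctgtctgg

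With the start site at position 0, the word spans -97 to -89 in Psmb8, 9 to 18 in Psme1, -47 to -39 in Psmb5, -9 to -1 in Psmb6 and -243 to -235 in Psmg1. RefSeq promoters of 39 of the 46 members, 42 promoters in all, were searched on both strands. Psmg2, on chromosome 18, was left out of the member search, and no chromosome was left out of the promoters of all genes. TGACNNNGC occurred in 6 of the 42 member promoters (14.3%) and in 12.4% of 32851 promoters of all genes. The interferon-stimulated response word occurred in 5 member promoters (11.9%, those of Psmb3, Psmd4, Psmd9, Psme1 and Psmg4) and in 3.44% of all promoters. TTCNNNGAA occurred in 3 (7.14%, those of Psmb8, Psmd2 and Psmg1), against 8.3% of all promoters. CCAAT, the word of NF-Y, occurred in 13 (31%), against 37.4%. A match describes these letters and is not a shown binding site.

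Members lie on 16 chromosomes. The immunoproteasome genes Psmb9 (chr17:34181987-34187764, minus strand) and Psmb8 (chr17:34197721-34201454, plus strand) are 9957 bases apart in the class II region of the MHC, with the peptide transporter gene Tap1 between them. Psme1 (plus strand) and Psme2 (minus strand), which encode the subunits of PA28, are 5912 bases apart on chromosome 14. The remaining members are spread over the genome (coordinates of GENCODE M21, build GRCm38).

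Levels of the subunits that build the same particle were not equal. The highest mean over all 12 libraries in each class was that of Psma4 (140 FPKM) in the alpha ring, Psmb3 (155 FPKM) among structural beta subunits, Psmb6 (186 FPKM) among constitutive catalytic subunits, Psmc3 (126 FPKM) among the ATPases and Psmd3 (118 FPKM) among the other 19S subunits. The lowest in those classes were Psma3 (32.5 FPKM), Psmb2 (76.1 FPKM), Psmb7 (113 FPKM), Psmc6 (40.1 FPKM) and Psmd11 (34.2 FPKM). The order changed with the group. In WT IRI Psma7 (165 FPKM) exceeded Psma4 (149.8 FPKM) and Psmb4 (191 FPKM) exceeded Psmb3 (175 FPKM). In CKO IRI Psmb5 (195 FPKM) exceeded Psmb6 (178 FPKM), and Psmd13 (38.5 FPKM) lay under Psmd11 (42.9 FPKM). Assembly chaperones were lower, between 9.53 FPKM for Psmd5 and 26.1 FPKM for Psmg4. Psmf1, the PI31 inhibitor, averaged 6.98 FPKM. The immunoproteasome subunits averaged 12.6 FPKM for Psmb8, 11.8 FPKM for Psmb10 and 3.51 FPKM for Psmb9, far under their constitutive counterparts.

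**Figure D1:**
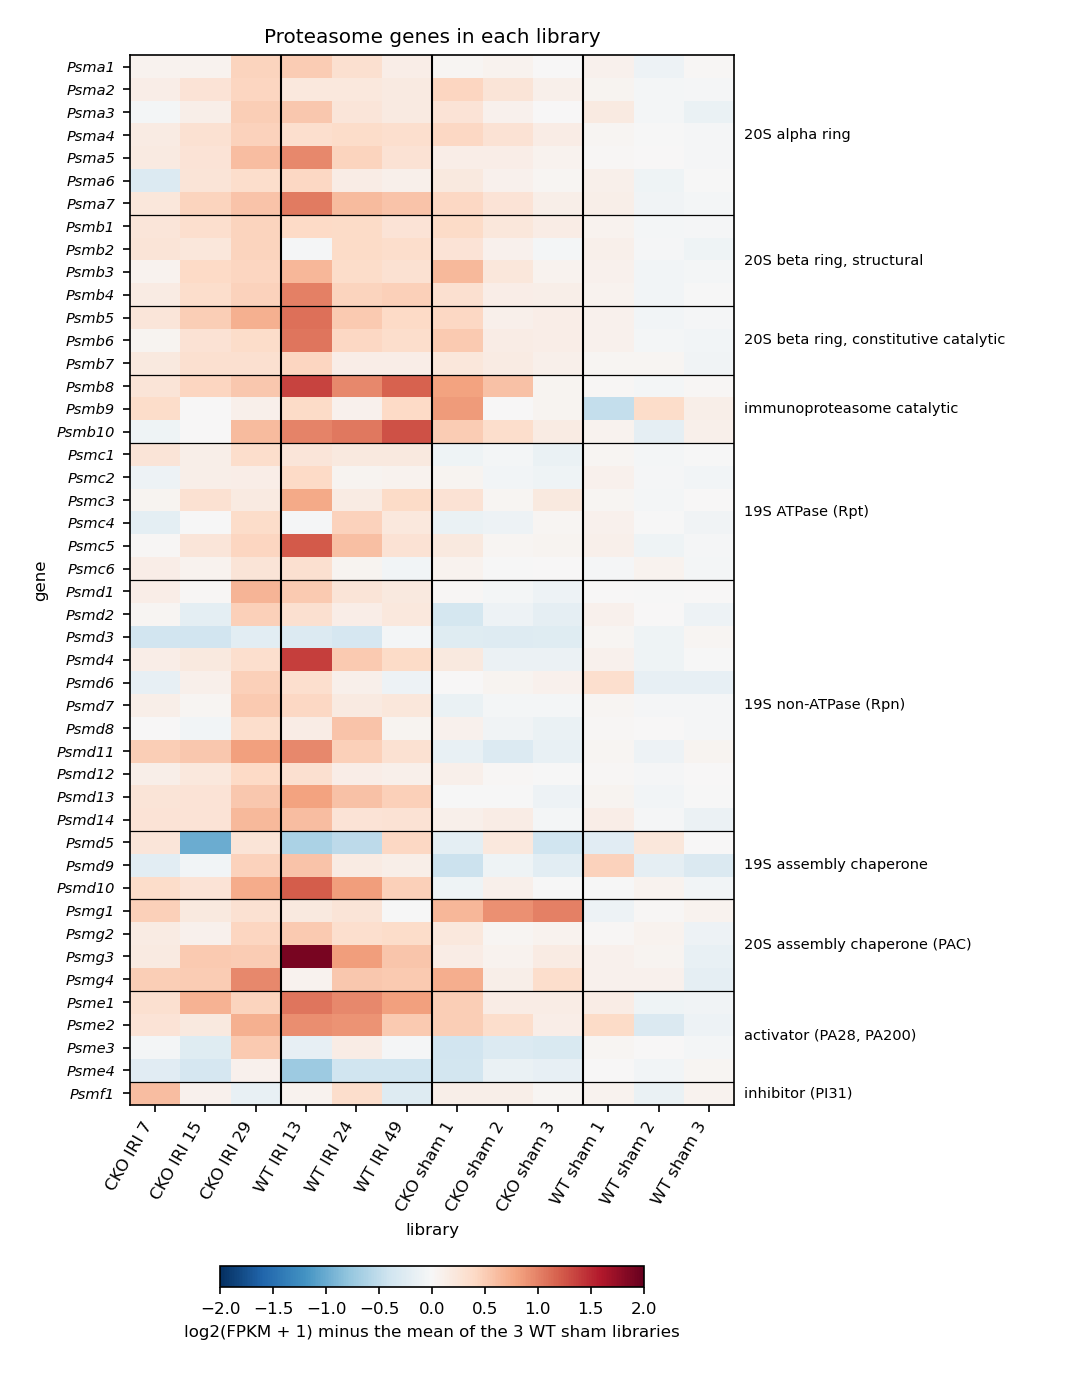
Heat map of the 46 proteasome genes (rows, grouped by role) in the 12 libraries (columns); colour is log2(FPKM + 1) minus the mean of the 3 WT sham libraries. Psmb8, Psmb10 and Psme1 are darkest in the 3 WT IRI libraries, Psmg1 in the 3 CKO sham libraries, and the strongest single rise is that of Psmg3 in WT IRI 13, at 62.4 FPKM.

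Psmb8, Psmb10, Psmg3 and Psme1 had the largest of the rises called among proteasome genes after injury in the wild type. Called rises came from every class except the inhibitor. Those of the ATPases and of the constitutive catalytic subunits were all lost without WT IRI 13. In WT IRI against WT sham, 19 of the 46 members were called higher and 1 was called lower (limma, Benjamini-Hochberg adjusted p under 0.05 over 12469 genes), where 23.5% of all tested genes were called higher and 11.8% lower. Leaving the immunoproteasome subunits apart, 17 of 43 were called higher and 1 lower. The median log2 change of those 43 was 0.32, beside 0.12 over all tested genes, and 39 of the 43 changes were positive, beside 7295 of 12469 genes. Libraries did not overlap between the groups for 30 members higher and 1 lower, where 35.2% of all tested genes were higher and 19.5% lower in that way.

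The count depended on the libraries used. Without WT IRI 13, 9 of 46 members (19.6%) were called higher and 0 lower, beside 16.7% of all tested genes called higher, so the members' share was then close to the background. Without WT IRI 24 the counts were 10 (21.7%) and 0, beside 10.97% of all tested genes called higher. The median of the 43 members kept its sign in both cases, at 0.29 and 0.33. With both WT IRI 13 and CKO IRI 15 left out, 8 (17.4%) were called higher and 0 lower, beside 15.7% of all tested genes called higher, again close to the background. Of the 20 members called with all libraries, 9 were called whichever single library was left out. The members called in every alternative fit, those 2 libraries together included, were Psma7, Psmb4, Psmb8, Psmb10, Psmd10, Psmd13 and Psme1. The share of all called genes that held in these ways was not computed, so neither result has a background beside it. Bulk RNA cannot tell fewer cells of a type from less RNA per cell, here and below.

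The balance of all calls depended on the scaling. Of all genes called in WT IRI against WT sham, 66.6% were higher with values as deposited, 50.9% with quantile normalization and 50.04% with median-ratio scaling, and the median of all genes moved to -0.02 and -0.01. The 43 members' median stayed positive, at 0.27 and 0.17, and the called members among them numbered 18 higher and 1 lower with quantile normalization and 11 higher and 2 lower with median-ratio scaling. Of all tested genes, 16.7% were called higher and 16.1% lower with quantile normalization. With median-ratio scaling these shares were 16.97% and 16.95%. In CKO IRI against CKO sham, the share called higher was 76.6% as deposited, 61.6% with quantile normalization, 62.5% with median-ratio scaling and 81.2% with each library rescaled to the same total.

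Among the catalytic subunits, the immunoproteasome pair Psmb8 and Psmb10 had the largest changes in wild-type injury. Psmb8, the inducible beta5 subunit, had 22.1, 16.7 and 19.6 FPKM in WT IRI and 8.24, 7.79 and 8.19 FPKM in WT sham. All injured libraries lay above all sham libraries, with a log2 change of 1.17 (SE 0.20, limma adjusted p = 0.00195). Psmb10, the inducible beta2 subunit, had 17.2, 17.97 and 21.0 FPKM in WT IRI and 8.59, 7.04 and 8.81 FPKM in WT sham. Its log2 change was 1.11 (SE 0.21, limma adjusted p = 0.00262), again without overlap. Psmb9, the inducible beta1 subunit, had 4.02, 3.12 and 4.09 FPKM in WT IRI and 1.77, 3.97 and 3.20 FPKM in WT sham. The Psmb9 groups overlapped and the change was not called (0.29, 95% interval -0.55 to 1.13).

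The constitutive catalytic subunits were more abundant and changed less. Psmb5, the beta5 subunit with chymotrypsin-like activity, had 298, 199 and 182 FPKM in WT IRI and 146, 134 and 135 FPKM in WT sham (log2 change 0.68, SE 0.17, limma adjusted p = 0.0116). Psmb6, the beta1 subunit with caspase-like activity, had 317, 199 and 192 FPKM in WT IRI and 160, 145 and 145 FPKM in WT sham (0.61, SE 0.18, limma adjusted p = 0.0227). In both genes WT IRI 13 stood well above the other 2 injured libraries. Without it the log2 changes were 0.46 and 0.38 and neither was called, and neither was called without WT IRI 24. Psmb7, the beta2 subunit with trypsin-like activity, had 135, 111 and 110 FPKM in WT IRI and 103, 103 and 96.1 FPKM in WT sham, a change of 0.23 that was not called although the groups did not overlap.

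Of the 11 other core genes, 7 in the alpha ring and 4 structural beta subunits, all had a positive change. Of these, 5 were called higher, where 23.5% of all tested genes were. Psma7, an alpha ring subunit, had 200, 151 and 143 FPKM in WT IRI and 104, 92.0 and 93.8 FPKM in WT sham. Its log2 change of 0.75 (SE 0.15, limma adjusted p = 0.00384) was the largest of the alpha ring, where changes began at 0.20. Psmb4, a structural beta subunit, had 242, 163 and 168 FPKM in WT IRI and 125, 115 and 119 FPKM in WT sham (0.64, SE 0.14, limma adjusted p = 0.00573). Groups of both genes were separate, and both calls held without WT IRI 13. The smallest called rises in the comparison were also here, at 0.34 for Psma4 and 0.35 for Psmb1. Both calls were lost without library 13 or 24 of WT IRI and without library 2 or 3 of WT sham, and that of Psma4 also without WT IRI 49.

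In the 19S cap, 2 of 6 ATPases and 3 of 11 other subunits were called higher, where 23.5% of all tested genes were. The share of the 11 was close to that background. Psmc5, an ATPase of the ring, had 176, 114 and 90.8 FPKM in WT IRI and 80.4, 70.4 and 73.2 FPKM in WT sham (log2 change 0.71, SE 0.18, limma adjusted p = 0.0127). Psmd4, the ubiquitin receptor Rpn10, had 130, 71.4 and 64.9 FPKM in WT IRI and 52.4, 46.6 and 49.01 FPKM in WT sham (0.77, SE 0.19, limma adjusted p = 0.0114). WT IRI 13 was far above the other injured libraries in both. Without it the change was 0.45 for Psmc5, which was not called then or without WT IRI 24, and 0.46 for Psmd4, which was still called. Psmd13, the lid subunit Rpn9, was more even, with 52.5, 45.3 and 41.8 FPKM in WT IRI and 31.0, 28.5 and 29.7 FPKM in WT sham (0.62, SE 0.12, limma adjusted p = 0.00252). Psmd11, the lid subunit Rpn6 that braces the cap on the core, had 54.2, 38.6 and 34.3 FPKM in WT IRI and 28.3, 25.6 and 28.5 FPKM in WT sham (0.58, SE 0.15, limma adjusted p = 0.012). The call of Psmd11 did not hold without WT IRI 13 (0.40) or WT IRI 24 (0.63). Psmd3, the most abundant of the non-ATPase subunits, had a change of -0.22 and was not called.

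Activators moved in opposite directions. Psme1, the PA28 alpha subunit, had 70.9, 65.5 and 59.0 FPKM in WT IRI and 36.7, 31.3 and 31.6 FPKM in WT sham, and had the smallest p of all members (log2 change 0.95, SE 0.16, limma adjusted p = 0.0016). Psme2, the PA28 beta subunit, had 78.1, 76.0 and 58.6 FPKM in WT IRI and 53.0, 33.1 and 37.7 FPKM in WT sham (0.78, SE 0.28, limma adjusted p = 0.0488), a call that held in 9 of 23 alternative fits. Psme4, the nuclear activator PA200, was the member called lower, with 14.6, 18.7 and 18.6 FPKM in WT IRI and 25.1, 24.02 and 25.6 FPKM in WT sham (-0.51, SE 0.14, limma adjusted p = 0.0158). That call did not hold without WT IRI 13 (-0.40) or WT IRI 24 (-0.57). Neither of the changes of Psme3, the nuclear PA28 gamma (-0.01), and Psmf1 (0.05) was called.

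Among the assembly factors, Psmg3 and Psmd10 changed most. Psmg3, a 20S assembly chaperone that pairs with Psmg4, had 62.4, 29.1 and 23.8 FPKM in WT IRI and 17.0, 16.6 and 14.3 FPKM in WT sham (log2 change 1.09, SE 0.24, limma adjusted p = 0.0055). One injured library, WT IRI 13, set much of that size, and the lowest change among the alternatives was 0.69. Psmd10, the 19S assembly chaperone gankyrin, had 37.7, 28.9 and 22.3 FPKM in WT IRI and 15.6, 16.5 and 15.01 FPKM in WT sham (0.84, SE 0.16, limma adjusted p = 0.00336). Psmg2, the partner of Psmg1, was called with a smaller change of 0.41 (limma adjusted p = 0.0299), a call lost without any single WT IRI library or without WT sham 3. Psmg1 (0.15), Psmg4 (0.38), Psmd5 (-0.25) and Psmd9 (0.28) were not called.

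**Figure D2:**
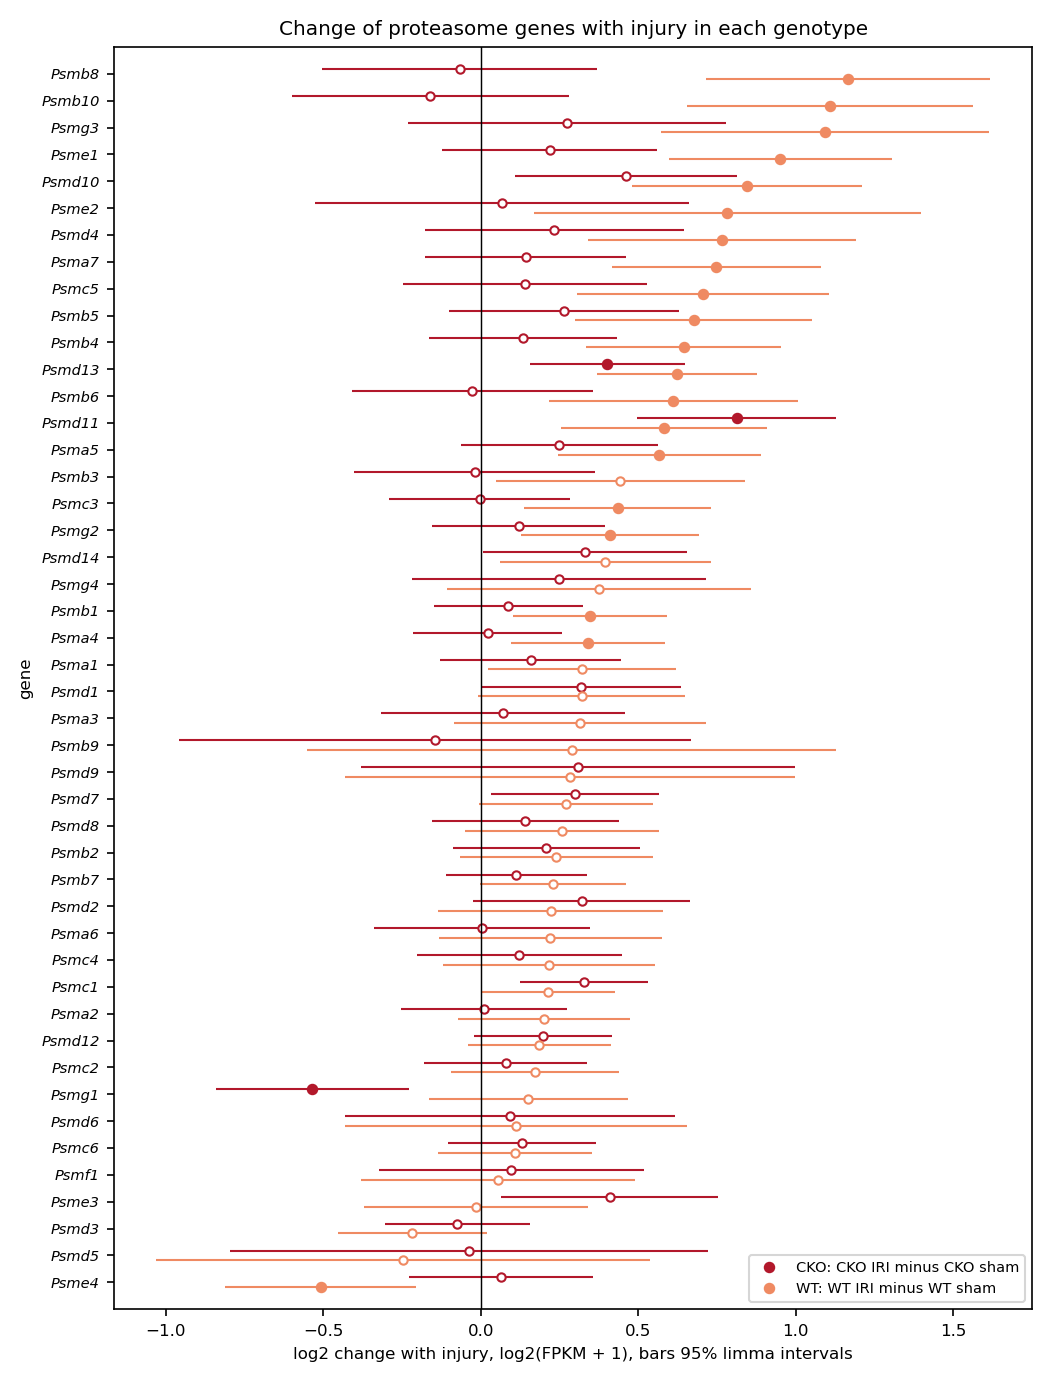
Log2 change with injury, on the log2(FPKM + 1) scale with 95% limma intervals, for each of the 46 genes in the knockout (dark red) and the wild type (orange); filled points were called at adjusted p under 0.05. In the knockout 3 points are filled (Psmd11, Psmd13 and Psmg1), and in the wild type 20 are, from -0.51 for Psme4 to 1.17 for Psmb8.

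Fewer members were called in the knockout. In CKO IRI against CKO sham, 2 of 46 members were called higher and 1 lower, where 6.60% of all tested genes were called higher and 2.02% lower, so the members' share of rises was not above the background. Libraries did not overlap for 12 members higher and 1 lower, where 21.4% of all tested genes were higher and 10.1% lower in that way. The 43 members outside the immunoproteasome had a median log2 change of 0.14, beside 0.08 over all tested genes. Their median rested on single libraries, at 0.07 without CKO IRI 29, beside 0.06 over all tested genes, and 0.23 without CKO IRI 7, beside 0.09. It was between 0.04 and 0.18 under the other scalings.

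Psmd11 was the clearest rise there, with 39.2, 40.5 and 49.1 FPKM in CKO IRI and 24.5, 22.6 and 24.5 FPKM in CKO sham (log2 change 0.81, SE 0.14, limma adjusted p = 0.00668). It was also called in the wild type, and every injured library exceeded every sham library in both genotypes. The same separation was seen for Psma5, Psmc1, Psmd1, Psmd7, Psmd10, Psmd12, Psmd13, Psmd14 and Psmg3. The share of all genes separated in both genotypes was not computed. Psmd13 had 35.8, 36.2 and 43.6 FPKM in CKO IRI and 29.4, 29.5 and 27.5 FPKM in CKO sham (0.40, SE 0.11, limma adjusted p = 0.0499). Psmg1 was lower, with 17.8, 14.5 and 15.7 FPKM in CKO IRI and 20.5, 24.5 and 26.1 FPKM in CKO sham (-0.53, SE 0.14, limma adjusted p = 0.0395). Its CKO IRI libraries still lay above those of WT sham (11.6 to 13.2 FPKM). The sham comparison and the interaction below use the same CKO sham libraries, so the Psmg1 results are not independent. Next in p was Psmc1, an ATPase of the cap, at 0.33 (limma adjusted p = 0.0517).

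None of those 3 calls held under every left-out library. Without CKO IRI 7 no member was called in either direction, where 1.79% of all tested genes were called higher and 0.24% lower. Psmd11 then had a change of 0.87 with a limma adjusted p of 0.0519. The count of rises was 1 without CKO IRI 29, without any single WT IRI library, without CKO sham 2 or 3, and without any single WT sham library. In those fits 2.61% to 6.51% of all tested genes were called higher. The fall of Psmg1 was not called without any single CKO IRI library, or without WT IRI 13, CKO sham 2, CKO sham 3 or WT sham 2. With both WT IRI 13 and CKO IRI 15 left out, 2 members were called higher and 0 lower, where 7.60% and 2.64% of all tested genes were.

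The immunoproteasome subunits were not called in the knockout. Psmb8 had 9.85, 11.3 and 12.2 FPKM in CKO IRI and 14.9, 12.6 and 8.37 FPKM in CKO sham. Psmb10 had 7.57, 8.20 and 13.1 FPKM in CKO IRI and 12.03, 10.6 and 9.25 FPKM in CKO sham. Both genes overlapped between the groups, with log2 changes of -0.07 (95% interval -0.50 to 0.37) and -0.16 (95% interval -0.60 to 0.28), and neither was called. Psmb9 had a change of -0.15 and was not called. Psme1 had 41.5, 53.9 and 45.4 FPKM in CKO IRI and 46.8, 36.9 and 36.9 FPKM in CKO sham, a change of 0.22 that was not called.

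**Figure D3:**
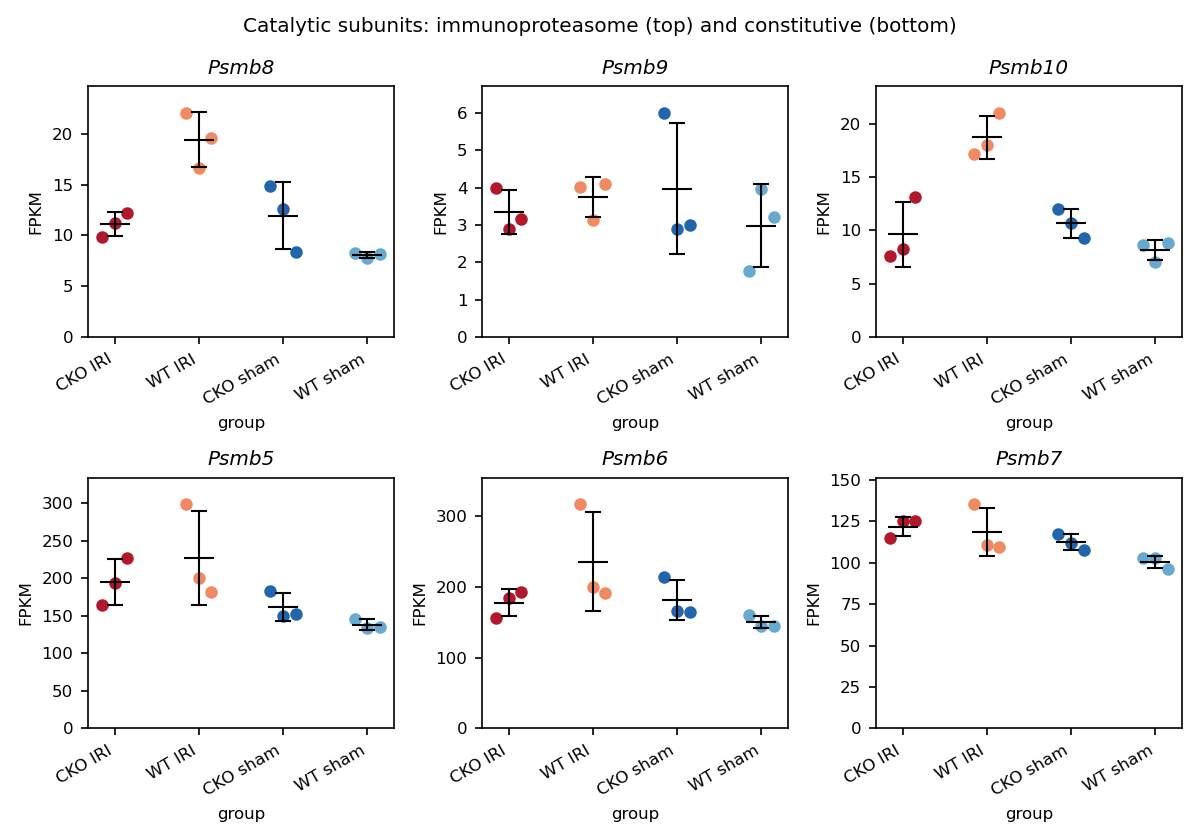
FPKM of the 3 immunoproteasome catalytic subunits (top) and the 3 constitutive ones (bottom) by group; points are libraries, bars the mean and SD of 3. Psmb8 lies between 16.7 and 22.1 FPKM in WT IRI and at or under 14.9 FPKM in every other library, and the highest WT IRI library has 298 FPKM of Psmb5 and 317 FPKM of Psmb6.

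In the sham kidneys, knockout against wild type, Psmg1 was the member called. Psmg1 encodes PAC1, which with PAC2 starts the alpha ring of the 20S core. It had 20.5, 24.5 and 26.1 FPKM in CKO sham and 11.6, 12.8 and 13.2 FPKM in WT sham, with all CKO libraries above all WT libraries (log2 change 0.86, SE 0.10, limma adjusted p = 0.0122). It was 1 of 5 genes called higher among the 12469 tested, 0.0401% of them, and no member was among the 12 genes called lower (0.0962%). Leaving out 1 sham library moved those counts, with 35 higher and 53 lower without CKO sham 1, 2 higher and 3 lower without CKO sham 2, and 0 in both directions without CKO sham 3. Psmg1 has 1 transcript in the table, and after injury CKO IRI (14.5 to 17.8 FPKM) and WT IRI (12.4 to 15.2 FPKM) overlapped. The call did not hold without CKO sham 2 (limma adjusted p = 0.134) or CKO sham 3 (limma adjusted p = 0.119), nor with a spread shared by all groups (limma adjusted p = 0.158) or a fit of the sham groups alone (limma adjusted p = 0.122).

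None of the other 45 members was called between the sham groups. At an unadjusted p under 0.05 there were 13 of them, where 17.8% of all tested genes were. Libraries did not overlap for 14 of them higher and 6 lower in CKO sham, where 15% and 13.4% of all tested genes were. All 14 subunits of the 20S core outside the immunoproteasome had positive changes, from 0.04 to 0.32, where 6540 of the 12469 tested genes were positive, and 8 of the 11 non-ATPase subunits of the cap had negative ones. With each library rescaled to the same total, 13 of the 14 were positive and the lowest was -0.03, that of Psma1. Subunits of the same particle may vary together, so the 14 signs are not independent observations. The median change of the 43 members outside the immunoproteasome was 0.09, and 0.05 without CKO sham 1. The members of smallest p after Psmg1 were Psma4 at 0.28, Psmb8 at 0.48 and Psmd3 at -0.25, with limma adjusted p values of 0.138, 0.155 and 0.156. Psmb8 groups did not overlap, with 8.37 FPKM as the lowest CKO sham library and 8.24 FPKM as the highest WT sham library.

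After injury, no member passed the test between the genotypes. In CKO IRI against WT IRI, 0 of 46 members were called in either direction by limma, where 0.00802% of all tested genes (1 gene) were called in each. At an unadjusted p under 0.05 there were 5 members, where 12.6% of all tested genes were, a share close to the members', and all 5 were lower in CKO IRI. They were Psmb10 (-0.92), Psmb8 (-0.75), Psmg3 (-0.69), Psme1 (-0.47) and Psmd4 (-0.54). Libraries did not overlap for 1 member higher and 5 lower, where 7.11% and 11.5% of all tested genes were. The 95% limma interval was -1.47 to -0.37 for Psmb10 and -1.30 to -0.21 for Psmb8, and their limma adjusted p was 0.346 each. With array weights for each library in place of each group, calls became more frequent over the whole table, with 2.57% of all tested genes higher and 3.22% lower. Psmb10 and Psme1 were called lower in that fit, 4.35% of the members.

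The difference between the genotypes in the response to injury was tested as an interaction. No member was called by limma, where 0.00802% of all tested genes were called in each direction, and 11 had an unadjusted p under 0.05, where 17.7% of all tested genes had. The sign was negative for 34 of the 46, meaning a smaller rise or larger fall in the knockout, and for 6889 of the 12469 tested genes. The largest differences were those of Psmb10 (-1.27, SE 0.29, limma adjusted p = 0.191) and Psmb8 (-1.23, SE 0.28, limma adjusted p = 0.191). Psmg1 (-0.69, limma adjusted p = 0.191), Psme1 (-0.73, limma adjusted p = 0.193) and Psme4 (0.57, limma adjusted p = 0.197) followed in p. The alternative with weights for each library called 4 of them lower, Psmb8, Psmb10, Psme1 and Psmg1 (8.70% of the members), where it called 2.78% of all tested genes higher and 3.96% lower. A smaller count of calls in the knockout is therefore not by itself a shown difference between the genotypes.

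The balance of catalytic subunit RNA was read as the share of the 3 immunoproteasome subunits in the summed FPKM of the 6 catalytic subunits. Subunit protein, its place in the particle and proteasome activity were not measured. The share was 4.68%, 4.25% and 4.98% in CKO IRI, 5.45%, 6.90% and 8.47% in WT IRI, 5.99%, 5.76% and 4.63% in CKO sham and 4.35%, 4.70% and 5.09% in WT sham. The WT IRI libraries lay above WT sham and above CKO IRI, without overlap, but overlapped CKO sham. Psmb8, taken with its counterpart Psmb5, made up 5.42% ± 0.27 in CKO IRI and 8.11% ± 1.45 in WT IRI (SD, n = 3 each). It made up 6.83% ± 1.41 in CKO sham, which WT IRI overlapped, and 5.52% ± 0.18 in WT sham. Of Psmb10 with its counterpart Psmb7, Psmb10 made up 7.27% ± 1.92 in CKO IRI, 13.8% ± 2.42 in WT IRI, 8.61% ± 0.69 in CKO sham and 7.51% ± 1.01 in WT sham (SD, n = 3 each). Psmb9 with Psmb6 showed no such separation, with Psmb9 at 1.88% ± 0.53, 1.63% ± 0.43, 2.08% ± 0.56 and 1.97% ± 0.80 in the same 4 groups. WT IRI 13, the library with most Psmb5 and Psmb6, had the lowest share of the 3 WT IRI libraries.

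**Figure D4:**
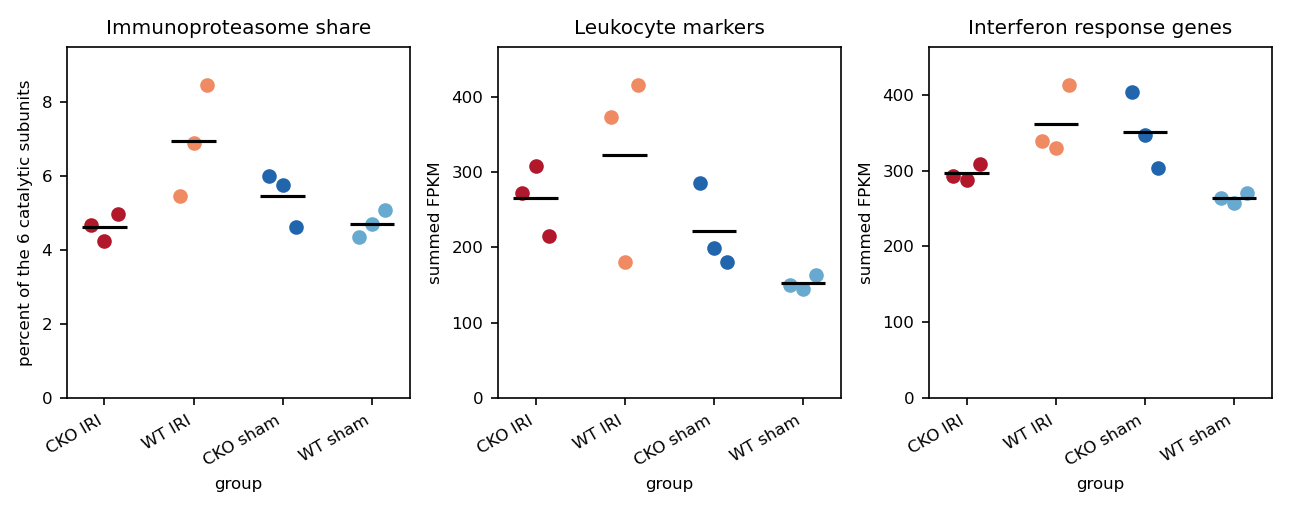
Immunoproteasome share of the catalytic subunits in percent (left) and the summed FPKM of leukocyte markers (middle) and interferon response genes (right), by group; points are libraries and lines the mean of 3. The mean share is highest in WT IRI, whose libraries have 5.45% to 8.47%, where leukocyte sums range from 181 to 416 FPKM and interferon sums from 330 to 413 FPKM.

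Genes of leukocytes and of the interferon response were read beside the immunoproteasome, since both are known to use it. Of 26 leukocyte markers 21 were in the table, and their sum was 216 to 308 FPKM in CKO IRI, 181 to 416 FPKM in WT IRI, 181 to 285 FPKM in CKO sham and 145 to 164 FPKM in WT sham. The pan-leukocyte marker Ptprc was not analysed here, and the T cell markers Cd3e, Cd4 and Cd8a stayed at or under 1.19 FPKM. In CKO IRI against CKO sham, 1 of 18 tested markers was called higher, where 6.60% of all tested genes were. It was S100a9, with a log2 change of 2.14. In WT IRI against WT sham, 7 of the 18 were called higher and 0 lower, where 23.5% and 11.8% of all tested genes were. Those called included Coro1a (1.47), S100a9 (2.21), Tyrobp (1.13) and Lyz2 (1.55). WT IRI 24 had the smallest leukocyte sum of its group (181 FPKM) with Psmb8 at 16.7 FPKM and Psmb10 at 17.97 FPKM. The part of these cells in the immunoproteasome values was not tested.

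The 26 interferon response genes summed to 287 to 309 FPKM in CKO IRI, 330 to 413 FPKM in WT IRI, 304 to 404 FPKM in CKO sham and 257 to 270 FPKM in WT sham. In CKO IRI against CKO sham, 2 were called higher and 4 lower, where 6.60% and 2.02% of all tested genes were. In WT IRI against WT sham 8 were called higher and 1 lower, where 23.5% and 11.8% of all tested genes were. Irf1, a transcription factor known to induce immunoproteasome genes, had 10.5, 9.31 and 5.38 FPKM in CKO IRI, 17.2, 17.3 and 17.2 FPKM in WT IRI, 13.2, 12.5 and 12.5 FPKM in CKO sham and 7.88, 7.50 and 8.98 FPKM in WT sham. It was not called with injury in the knockout (log2 change -0.59, limma adjusted p = 0.0736) and was called higher in the wild type (1.00, limma adjusted p = 0.00303). The receptor genes Ifngr2 and Ifngr1 were called higher in the knockout (0.82 and 0.77) and in the wild type (1.34 and 0.97). Gbp3, an interferon-induced GTPase, was called lower in the knockout (-1.81) and in the wild type (-2.11). The part of the interferon response in the immunoproteasome values was not tested.

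Class I antigen presentation genes, which take up proteasome products, gave none of 16 called in CKO IRI against CKO sham. There 6.60% of all tested genes were called higher and 2.02% lower. In WT IRI against WT sham, 5 of the 16 were called higher and 0 lower, where 23.5% and 11.8% of all tested genes were. Examples in the wild type were Tapbp, the peptide-loading chaperone tapasin (log2 change 0.85, limma adjusted p = 0.000438), and the class I heavy chains H2-D1 (0.85) and H2-K1 (0.55), with Tapbpl at 0.62. Tap1, the neighbour of Psmb9 and Psmb8, was at or under 4.93 FPKM in every library and was not called in either genotype.

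Partners of the proteasome outside the Psm symbols were counted in the same way. Of 12 tested genes bound to the particle or to its assembly, 1 was called higher in CKO IRI against CKO sham, where 6.60% of all tested genes were. In WT IRI against WT sham, 5 were called higher and 0 lower, where 23.5% and 11.8% of all tested genes were. Usp14, a deubiquitinase of the cap, was the gene called in the knockout (log2 change 0.51, limma adjusted p = 0.0496). Sem1, the smallest subunit of the lid, had 138, 57.7 and 61.4 FPKM in WT IRI and 41.1, 37.2 and 36.7 FPKM in WT sham (log2 change 1.02, limma adjusted p = 0.00631). Uchl5, another deubiquitinase of the cap, changed by 0.64, Ecpas, an adaptor of the particle, by 0.44, and Akirin2, which carries proteasomes into the nucleus, by 0.36. Pomp, the maturation factor of the 20S core, had a change of 0.34 in the wild type and was not called.

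Upstream and regulatory genes were counted beside all tested genes, of which 6.60% were called higher and 2.02% lower in the knockout. For the wild type these shares were 23.5% and 11.8%. Of 6 ubiquitin and E1 genes, none was called in CKO IRI against CKO sham, and Rps27a, which encodes ubiquitin fused to a ribosomal protein, was called higher in WT IRI against WT sham (log2 change 0.98, limma adjusted p = 0.000306). Of 14 genes of p97 and the ubiquitin shuttles, none was called in the knockout, and in the wild type Ubxn1, a p97 cofactor, was called higher (0.58) and Nbr1, an autophagy receptor for ubiquitinated cargo, lower (-0.65). Of 9 tested genes of the Nrf1 route, the small Maf gene Maff (1.48) was called higher in the knockout, and Maff (2.19) and Mafg (0.57) in the wild type. Nfe2l1 itself had 12.04, 12.5 and 8.47 FPKM in CKO IRI, 12.7, 11.2 and 15.9 FPKM in WT IRI, 12.2, 19.4 and 10.5 FPKM in CKO sham and 23.3, 12.2 and 23.2 FPKM in WT sham. Its groups overlapped and it was not called in any comparison.

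Markers of other cells in the cortex also moved with injury. The shares of all tested genes beside them were 6.60% called higher and 2.02% lower in the knockout, and 23.5% and 11.8% in the wild type. Proximal tubule markers were called lower for 4 of 15 genes in CKO IRI against CKO sham and for 14 of 15 in WT IRI against WT sham, and their sum was 3460 to 5361 FPKM in CKO IRI, 2369 to 4857 FPKM in WT IRI, 6580 to 8297 FPKM in CKO sham and 7410 to 7945 FPKM in WT sham. Tubular injury markers were called higher for 9 of 10 genes in the knockout and 10 of 10 in the wild type. Fibroblast markers were called higher for 4 of 10 in the knockout and 5 of 10 in the wild type, and endothelial markers were called lower for 6 of 10 in the knockout and 4 of 10 in the wild type. Podocyte markers were called lower for 1 of 6 in the knockout and 3 of 6 in the wild type. Distal nephron markers gave none of 9 called in the knockout, and 1 higher and 5 lower in the wild type. Of 8 joint and synovium markers, read because the labels' extraction text speaks of joint capsule, 2 were in the table, and their sum was at or under 4.69 FPKM in every library. The part of these cell markers in the proteasome values was not tested.

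**Figure D5:**
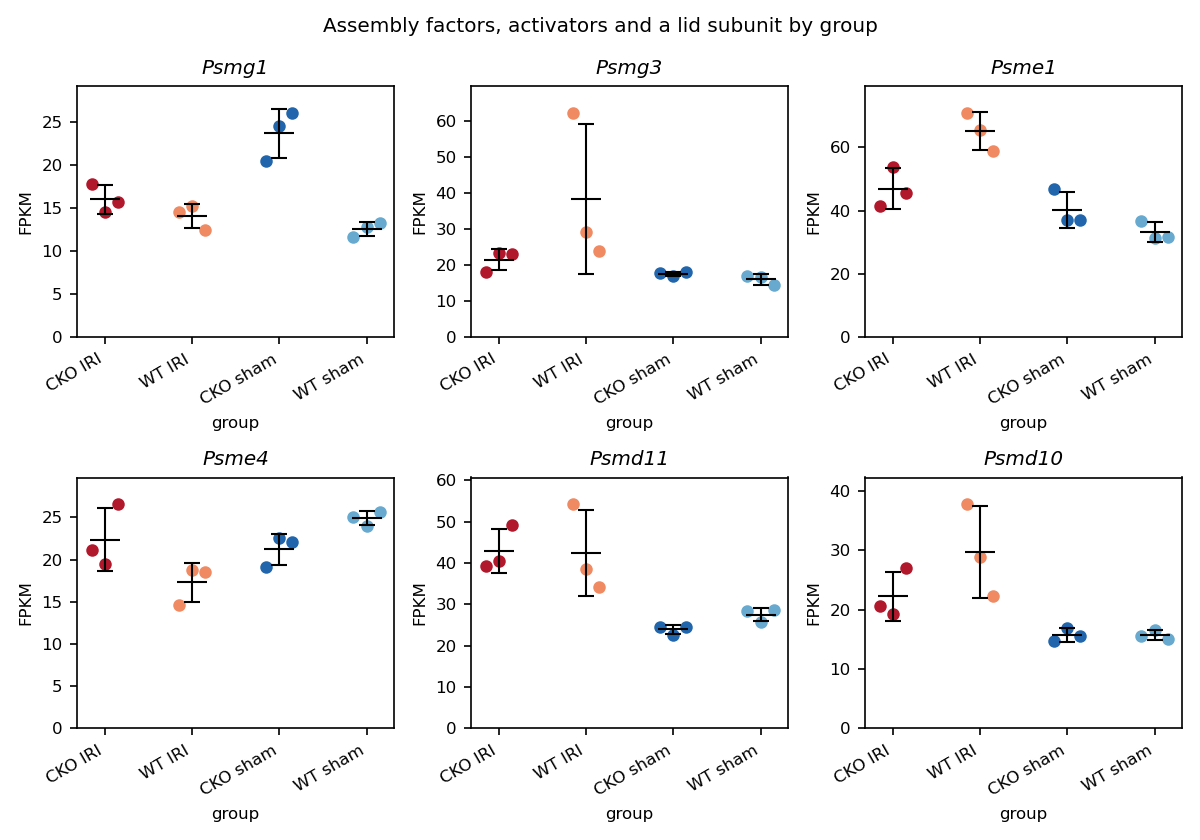
FPKM of assembly chaperones (Psmg1, Psmg3, Psmd10), activators (Psme1, Psme4) and the lid subunit Psmd11 by group; points are libraries, bars the mean and SD of 3. Psmg1 is highest in CKO sham (20.5 to 26.1 FPKM), and Psme1 in WT IRI (59.0 to 70.9 FPKM), where Psme4 is lowest (14.6 to 18.7 FPKM).

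Summed over the 43 genes outside the immunoproteasome, CKO IRI had 2737, 2973 and 3431 FPKM, WT IRI 3972, 3244 and 3080 FPKM, CKO sham 2978, 2699 and 2621 FPKM and WT sham 2694, 2475 and 2489 FPKM. All WT IRI libraries exceeded all WT sham libraries, while CKO IRI overlapped CKO sham. Within the injured groups WT IRI 13 and CKO IRI 29 had the largest proteasome sums. In the order of the same libraries, the injury markers summed to 5290, 2879 and 7965 FPKM in CKO IRI and 7254, 7958 and 5001 FPKM in WT IRI, and their part in the proteasome sums was not tested.

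Transcript splits limit some genes. The 46 genes were summed from 83 transcripts, all annotated as protein coding, and 24 genes had 1 transcript. Psmd8 was listed mainly under different transcripts in libraries of the same group, so that 1 transcript had 42.2, 79.6 and 0.649 FPKM in the 3 WT IRI libraries while the gene had 79.6, 108 and 74.6 FPKM. A second transcript of Psmd9 (ENSMUST00000197809) had 9.38 FPKM in CKO IRI 29 and 10.8 FPKM in WT sham 1, and at most 1.42 FPKM in the other libraries. A transcript of Psmd12 (ENSMUST00000106752) had 3.87, 13.1 and 16.1 FPKM in WT IRI and 0.0335, 1.88 and 1.04 FPKM in WT sham, while the gene was not called. Exons of 13 members overlap those of another gene, 11 of them on the opposite strand, among them Psmb9 with Tap1, Psmb8 with Gm20496, Psme1 with Emc9 and Psmd13 with Sirt3. Nothing in the labels says whether quantification used strand, so reads inside the shared stretches may not be told apart. The extent of those stretches was not measured, and reads outside them are not affected.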

How the data were processed

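RNA of 12 renal cortex libraries was measured in 4 groups of 3. The authors deposited 1 table of 25790 transcript values, read here as FPKM. Its header names no unit, and TPM would differ by 1 factor per library. The submitters' processing notes list cutadapt, HISAT2 version 2.1.0 and StringTie, and the human build GRCh38 although the identifiers are mouse. Versions of the others, the annotation and depth are not given in the sources used here. Every transcript row has a group mean of at least 0.5 FPKM.

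Transcripts were matched to GENCODE M21 (25740 of 25790; the others held at most 0.103% of a library) and summed per gene. Genes with at least 1 FPKM in 3 or more libraries, 12469 in all, were fitted with limma 3.58.1 (R 4.3.3) on log2(FPKM + 1), a scale that understates changes of low genes. One fit held all 12 libraries, with a mean-variance trend and array weights by group, since the spread differed between groups. Tests were two-sided, with Benjamini-Hochberg adjustment within each contrast and a threshold of 0.05. The fit was also run on simulated data, whose outcome is not reported here, so no rate of false calls is given. Alternatives were other pseudocounts, filters, scalings, weights and subsets of libraries. Genes named are the catalytic subunits, activators, inhibitor and assembly factors, the 4 largest and 4 smallest changes called in each contrast, or the 4 of smallest p where fewer were called, the highest and lowest member of each class, up to 4 genes of smallest p per list, and Gpx3; some others serve as examples. Members, lists and rules were chosen with earlier results of these data known. The gene fit holds 46 members, and p-values were adjusted over all tested genes.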

Additional observations from a re-analysis of the deposited data

How the results depend on the processing

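No called change of a named gene reversed under the alternatives run. The count of proteasome genes called higher in WT IRI against WT sham (19) ranged from 9 to 20 with 1 library left out, and was 8 without WT IRI 13 and CKO IRI 15, a pair chosen after seeing the data. The count called lower (1) ranged from 0 to 1 with 1 library left out, was 2 with median-ratio scaling and 2 with weights per library, and 0 without that pair. In CKO IRI against CKO sham, the count called higher (2) ranged from 0 to 3 with 1 library left out, and was 1 with a filter of 5 FPKM, 1 with median-ratio scaling, 1 with no array weights, 1 with only the groups compared and 5 with weights per library. The count called lower there (1) ranged from 0 to 1 with 1 library left out, and was 0 with libraries rescaled to one total, with only the groups compared and without that pair. In CKO sham against WT sham, the count called higher (1) ranged from 0 to 1 with 1 library left out, and was 0 with no array weights and 0 with only the groups compared. Weights per library called 2 members lower in CKO IRI against WT IRI and 4 lower in the interaction, where 0 were called otherwise, and over all genes 402 lower and 321 higher, and 494 lower and 347 higher, where 1 was called in each direction with weights by group. Over all genes, the count called higher in CKO IRI against CKO sham (823) was 2275 with weights per library and 222 without CKO IRI 7, and the count called lower (252) was 1276 and 30. In WT IRI against WT sham the count called higher (2936) was 1359 without WT IRI 24, and the count called lower (1472) was 892 without WT IRI 13 and 481 without WT IRI 24. In CKO sham against WT sham the counts over all genes (5 higher, 12 lower) were 35 and 53 without CKO sham 1 and 0 and 0 without CKO sham 3. The causes were not tested.

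With the replicate number as a block in the sham groups, 0 members were called higher, and Psmg1 had an adjusted p of 0.328 by limma. Deviations of same-numbered sham libraries had correlations of 0.0036, -0.0314 and -0.0025, so the numbers were not taken to pair the libraries. No paired analysis was possible because the injured groups share fewer than 2 numbers. Keeping only protein-coding transcripts left the members' values unchanged, and the fit of only the groups compared gives no interaction. Read depth is unknown, so counting error of the low genes, Psmb9 among them, could not be bounded.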
